A study of Bos taurus with 12 samples.

Results

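The genes described here encode the machinery that brings new proteins into the endoplasmic reticulum (ER) and carries them onward in vesicles. They were chosen by gene symbol, and the rule used no measured value to pick genes, but earlier results of these data were known. The symbols were those of the translocon (SEC6x, SSR, TRAM), the signal recognition particle (SRP), signal peptidase (SPCS, SEC11), ribophorins (RPN), HSPA5 and the disulfide isomerases (PDIA, ERP). They also covered the vesicle coats (SEC and COP), the cargo receptors (TMED, KDELR), the TRAPP tethers, golgins, YIPF proteins and the SNAREs (STX, VAMP). This gave 64 of the 3977 genes with a name on the array, covered by 75 of 4726 named probe sets. Each gene was represented by its brightest probe set, judged by the average of all 12 arrays. All 64 were brighter on average than the median probe set of the array, so a filter on dim signals removed none of them. SEC14L1, a lipid-transfer protein of another family, entered through its symbol alone and is given apart. Members of the same families without a named probe set were not analysed here.

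Bovine aortic endothelial cells at passage 15 (Bos taurus, tissue given as aorta) had been confluent cultures on glass and were then exposed to flow for 24 h. The study asked whether positive and negative spatial gradients of wall shear stress (WSS, the drag of the fluid on the cell surface) act differently on gene expression. Total RNA of 3 samples per group was labelled with biotin and hybridized to an Affymetrix array. The 4 groups were cells under a positive gradient of WSS, cells under a negative gradient of WSS, cells under uniform high WSS of 28.4 Pa and cells under uniform baseline WSS of 3.5 Pa. All groups shared the cell type and passage, and the growth and pre-flow media named in the labels, which contained serum, antibiotics and dextran. No static culture was included, so baseline means low uniform flow. The local stress in the gradient chambers is not given in the sources used here. All values below are log2 signals from RMA, so a difference of 1 is a factor of 2, and a signal compares arrays for a single gene and does not rank genes against each other.

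Proteins made for secretion or for membranes are threaded into the ER through the translocon, trimmed by signal peptidase, and folded with the help of the chaperone BiP and of disulfide isomerases. Vesicles with a COPII coat carry them towards the Golgi apparatus, vesicles with a COPI coat return escaped ER proteins and work within the Golgi, and tethers, golgins and SNAREs dock and fuse these vesicles. Endothelial cells use the same route for adhesion molecules, basement membrane and von Willebrand factor.

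The samples held signals of their labelled cell type: 12 of 18 endothelial markers were measured. PECAM1 and CDH5, junction proteins of endothelium, averaged 12.0 and 11.1, and the dimmest of the 12, FLT1 and PLVAP, averaged 6.90 and 7.46. Of the fibroblast markers, COL1A2 averaged 11.9, COL3A1 8.90 and THY1 6.71. The log2 of the summed endothelial markers lay at 13.97 to 14.05 under the positive gradient, 13.996 to 14.10 under the negative gradient, 13.77 to 14.05 at high WSS and 13.60 to 13.83 at baseline. The summed smooth muscle markers (TAGLN and SMTN, 2 of 11) lay at 8.45 to 9.36 under the positive gradient, 9.36 to 10.48 under the negative gradient, 8.04 to 9.13 at high WSS and 8.75 to 9.38 at baseline. The summed fibroblast markers (3 of 9) lay at 11.64 to 12.39 under the positive gradient, 11.95 to 12.45 under the negative gradient, 11.77 to 12.23 at high WSS and 11.88 to 12.69 at baseline. CD14, the only leukocyte marker of 8 measured, was dim, at 4.18 to 5.52 under the positive gradient, 4.47 to 7.12 under the negative gradient, 3.98 to 6.09 at high WSS and 5.15 to 7.99 at baseline. Against baseline, 3 endothelial markers rose under the positive gradient (25% of those measured, against 6.08% of named genes). There 1 fibroblast marker fell (33.3%, against 7.77% of named genes). Under the negative gradient 1 endothelial marker rose (8.33%, against 3.14% of named genes). In the other comparisons, and for the smooth muscle and leukocyte markers in all 6, 0 markers were called. With the replicate number as a block, the counts against baseline were 3 endothelial and 1 smooth muscle marker higher, and 2 endothelial, 2 fibroblast and 1 leukocyte marker lower, under the positive gradient. Of named genes, 16.1% were called higher and 18.2% lower there. Under the negative gradient 4 endothelial and 1 smooth muscle marker were higher than baseline and 1 fibroblast marker lower (8.32% and 3.55% of named genes). At high WSS 2 endothelial markers were higher than baseline, and 2 endothelial and 1 leukocyte marker lower (6.79% and 7.77% of named genes). Between the negative gradient and high WSS, 2 endothelial and 1 smooth muscle marker were higher and 1 endothelial marker lower (5.78% and 5% of named genes). Between the gradients, and between the positive gradient and high WSS, the count with the block was again 0. The summed smooth muscle markers were mostly higher under the negative gradient, but the 2 genes did not share this. Only 1 of the 2 had a higher mean there than under the positive gradient, and only 1 than at high WSS. Their part in the results below was not tested. In bulk RNA, fewer cells of a type and less RNA per cell cannot be told apart. The labels do not state that replicates were separate cultures, so p-values measure only the spread between these samples, which may be technical, and 3 arrays per group limit the precision.

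High WSS replicate 3 went against its label's other arrays. Its root mean square difference from positive gradient replicate 3 was 0.197, the smallest of 66 array pairs, against 0.441 and 0.442 from the other high WSS arrays. The 3′ minus 5′ difference of the GAPDH control, a measure of RNA and labelling quality, was 0.040 to 0.34 under the positive gradient, 0.041 to 0.17 under the negative gradient and 0.59 to 0.69 at baseline. It was 0.64 and 0.70 on high WSS replicates 1 and 2, and 0.089 on replicate 3. The EF1A control also set replicate 3 apart, at −2.03 against −1.09 and −1.15 on replicates 1 and 2. The actin control did not, at 1.14 against 1.06 and 1.24, and its values overlapped between the groups. Counts over the 64 genes that involve high WSS are therefore given with and without this array. The records of gradient and uniform-flow samples also carry separate runs of numbers, so wherever a gradient is set against uniform flow, the set of records and the flow cannot be told apart.

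Averaged over the 64 genes, the secretory machinery had its lowest signals under the positive gradient and at high WSS. The 3 array means were 9.39, 9.42 and 9.24 under the positive gradient, against 9.56, 9.51 and 9.56 with the negative gradient. They were 9.32, 9.38 and 9.28 at high WSS and 9.46, 9.53 and 9.48 at baseline. Each array of the positive gradient and of high WSS lay below each array of the negative gradient and of baseline. Over all 3977 named genes the array means overlapped, at 8.58 to 8.71 under the positive gradient, 8.61 to 8.78 under the negative gradient, 8.58 to 8.70 at high WSS and 8.67 to 8.70 at baseline. By single genes, 24 had their lowest group mean under the positive gradient, 3 under the negative gradient, 26 at high WSS and 11 at baseline. The positive gradient thus held the lowest mean for 37.5% of the 64 and 25.2% of named genes, the negative gradient for 4.69% and 25.6%, high WSS for 40.6% and 17.6%, and baseline for 17.2% and 31.7%. Without high WSS replicate 3 these shares moved, to 53.1% and 29.4% for the positive gradient, 4.69% and 25.9% for the negative gradient, 28.1% and 17.4% for high WSS, and 14.1% and 27.2% for baseline.

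**Figure D1:**
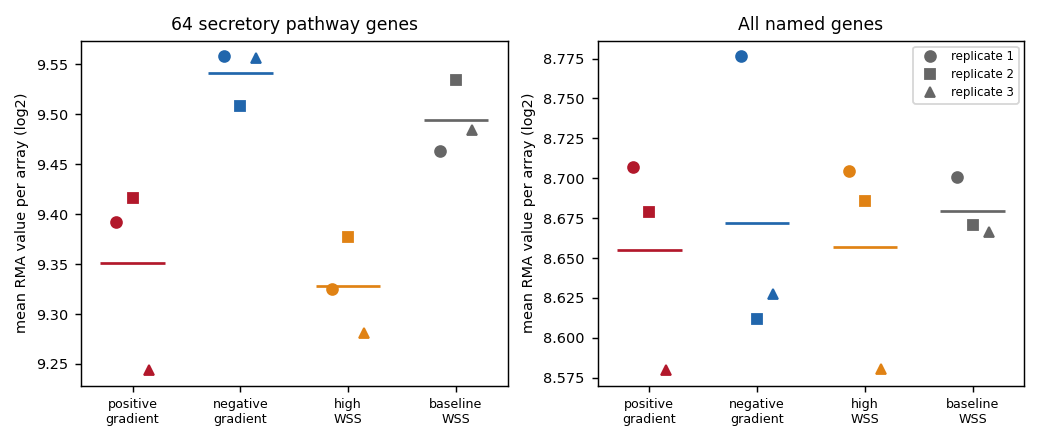
Mean RMA signal (log2) per array over the 64 secretory pathway genes (left) and over all 3977 named genes (right), in the positive gradient, negative gradient, high WSS and baseline groups; points are arrays, with a shape per replicate number, and lines are group means. The 64 genes sit below 9.42 on every positive gradient and high WSS array and above 9.46 on every other array, while the groups overlap over all named genes.

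Between the gradients, the question of the series title, no single secretory gene passed the threshold. Of the 64 genes, 56 had a lower mean under the positive gradient than under the negative gradient, which is 87.5% against 52% of all named genes. The median difference of the 64 was −0.18 (range −0.72 to 0.26), against −0.011 over named genes. The 3 positive gradient arrays lay wholly below the 3 negative gradient arrays for 27 genes (42.2%, against 10.2% of named genes), and wholly above them for 0 (against 5.46%). In the pairs of arrays numbered 1, 2 and 3, 56, 47 and 53 of the genes were lower. The limma test with Benjamini-Hochberg adjustment called 0 of the 64, beside 0% of all probe sets and 0% of named genes. The smallest adjusted p among the 64 was 0.703 and 16 had an unadjusted p under 0.05. With the replicate number as a block, which the pairing check allows for this comparison, the count was again 0 (0.0754% of named genes), the smallest adjusted p was 0.0894 and 20 had an unadjusted p under 0.05.

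The lower values were spread over most classes of the pathway, with the SRP and signal peptidase genes as exceptions. All 7 COPI subunits (median −0.31), all 9 cargo receptors (median −0.29), all 4 disulfide isomerases (median −0.29), all 3 golgins (median −0.34) and all 3 YIPF proteins (median −0.26) had a lower mean under the positive gradient. So did 5 of 6 COPII genes (median −0.31) and 10 of 11 SNAREs (median −0.12). At the entry to the ER, 7 of 8 translocon genes (median −0.16) but 1 of 3 SRP genes (median 0.067) and 0 of 2 signal peptidase genes (median 0.13) were lower. All 5 TRAPP genes were lower, with a median of only −0.028. These counts rest on the brightest probe set of each gene, and the second probe set of the golgin GOLGA4 was higher under the positive gradient (0.40, SE 0.294). The difference between these classes was not tested.

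**Figure D2:**
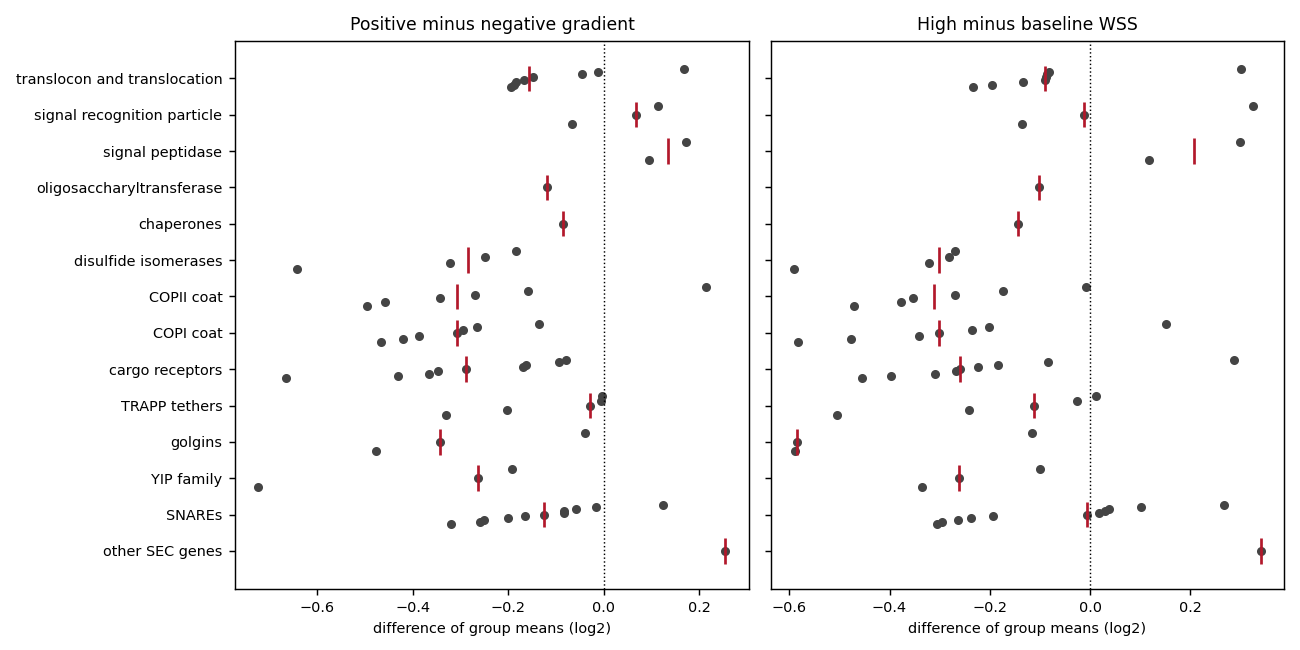
Difference of group means (log2) for each of the 64 genes, by role in the pathway, for the positive minus the negative gradient (left) and for high minus baseline WSS (right); points are genes and red bars are medians of a role. Coats, cargo receptors, disulfide isomerases and golgins lie mostly left of 0 in both panels, and SRP and signal peptidase genes lie near or right of it.

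The genes with the smallest p between the gradients belonged to different steps. SEC13, a subunit of the outer COPII coat that also sits in nuclear pores, had 10.64, 10.52 and 10.19 under the positive gradient, against 10.96, 10.97 and 10.91 under the negative gradient (difference −0.50, SE 0.138, adjusted p = 0.703 by limma). TMED3, a p24 family cargo receptor of early secretory vesicles, had 10.06, 10.25 and 9.82 under the positive gradient, against 10.58, 10.90 and 10.65 under the negative gradient (difference −0.67, SE 0.192, adjusted p = 0.703). The arrays of the 2 gradients did not overlap for either gene. PDIA5, a disulfide isomerase, had 7.48, 7.13 and 6.78 under the positive gradient, against 7.90, 7.87 and 7.54 under the negative gradient (difference −0.64, SE 0.19, adjusted p = 0.727). TMED9, another p24 receptor, had 11.01, 11.02 and 10.69 under the positive gradient, against 11.26, 11.38 and 11.38 under the negative gradient (difference −0.43, SE 0.13, adjusted p = 0.738). Both were again lower on each positive gradient array than on any negative gradient array. The largest difference of the 64 was that of YIPF3, a Golgi membrane protein, with 8.71, 8.54 and 8.11 under the positive gradient, against 9.31, 9.19 and 9.04 under the negative gradient (difference −0.72, SE 0.238, adjusted p = 0.826). Its arrays did not overlap either, but they spread by more within each gradient than those of SEC13. The 8 genes with a higher mean under the positive gradient differed by little: SEC14L1 by 0.26, SEC24B, a cargo adaptor of the COPII coat, by 0.21, and SPCS3, a signal peptidase subunit, by 0.17.

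KDEL receptors, which bind escaped ER proteins in the Golgi for return by COPI vesicles, had lower means under the positive gradient at all 3 genes. KDELR3 had 10.74, 10.81 and 10.60 under the positive gradient, against 11.06, 11.06 and 11.07 under the negative gradient (difference −0.35, SE 0.114). KDELR2 had 10.45, 10.58 and 10.31 under the positive gradient, against 10.69, 10.75 and 10.99 under the negative gradient (difference −0.37, SE 0.131). Neither gene's arrays overlapped between the gradients, and neither passed the test (adjusted p = 0.826 and 0.854).

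The uniform flows gave a second, separate comparison, of high with baseline WSS. Of the 64 genes, 51 had a lower mean at high WSS than at baseline (79.7%, against 51.8% of named genes), with a median difference of −0.19 against −0.014. The 3 high WSS arrays lay wholly below the baseline arrays for 20 genes (31.2%, against 17.5% of named genes) and wholly above them for 3 (4.69%, against 15.1%). The limma test called 0 of the 64, beside 1.18% of named genes and 0.408% of all probe sets, with a smallest adjusted p of 0.0848 and 15 genes at an unadjusted p under 0.05. With the replicate block, 5 of the 64 were called, all lower (7.81%, against 7.77% of named genes called lower and 14.6% called in either direction). Those genes were PDIA5 (−0.59, adjusted p = 0.024), GOLGA5 (−0.59, 0.0342), GOLGA2 (−0.58, 0.0345), SEC13 (−0.47, 0.0442) and COPB2 (−0.48, 0.0496). Without high WSS replicate 3, 47 of the 64 were lower at high WSS, the median was −0.14, and 0 were called without the block (14 at an unadjusted p under 0.05, and 0.126% of named genes called). The 2 remaining high WSS arrays then lay wholly below the baseline arrays for 29 genes (45.3%, against 20.7% of named genes) and wholly above them for 4 (6.25%, against 22.9%).

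GOLGA2, also called GM130, a golgin that helps hold the Golgi stack together and captures vesicles, had 7.99, 8.30 and 8.04 at high WSS and 8.69, 8.56 and 8.83 at baseline (difference −0.58, SE 0.139, adjusted p = 0.0848 without the block). PDIA5 had 7.22, 7.23 and 6.83 at high WSS and 7.62, 7.91 and 7.52 at baseline (difference −0.59, SE 0.19, adjusted p = 0.173 without the block). Each high WSS array lay below each baseline array for both genes.

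The positive-minus-negative and the high-minus-baseline differences share no array. Of the 64 genes, 48 were lower in both (75%, against 39.6% of named genes), 5 were higher in both, 8 were lower under the positive gradient and higher at high WSS, and 3 the reverse. The 2 differences correlated across the 64 genes with Pearson r = 0.70 and Spearman rho = 0.76, and across all named genes with r = 0.79 and rho = 0.71. Both differences had the same sign for 82.8% of the 64 and for 75.3% of named genes. This is a description across genes, which are not independent replicates. Without high WSS replicate 3, 45 of the 64 were lower in both (70.3%, against 39.7% of named genes). Without positive gradient replicate 3, the array nearest to it, 43 were (67.2%, against 35.2%).

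**Figure D3:**
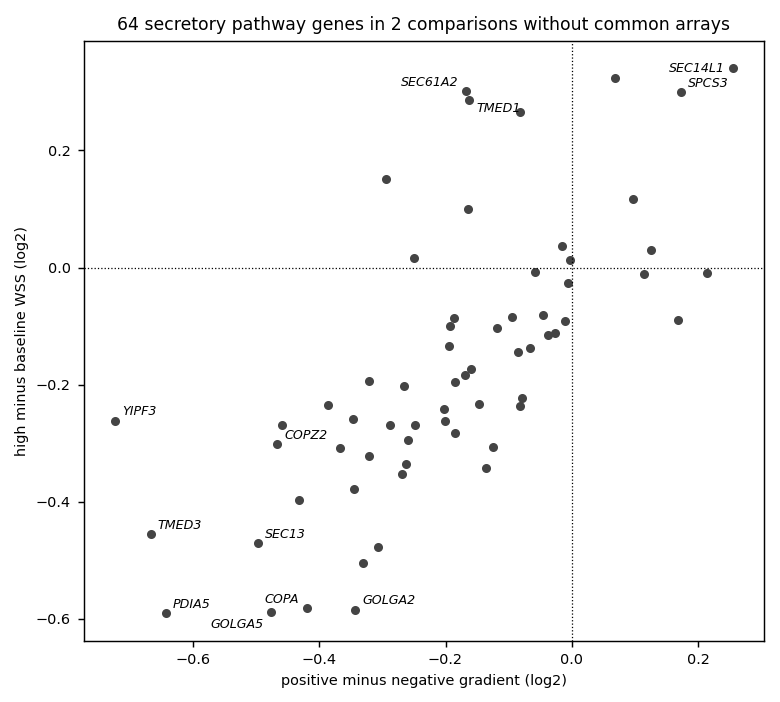
Each point is 1 of the 64 genes, with the difference of the positive minus the negative gradient on the x axis and of high minus baseline WSS on the y axis (both log2 differences of group means). The 48 genes in the lower left are lower in both comparisons, and PDIA5, GOLGA5, COPA, GOLGA2, SEC13, TMED3 and YIPF3 are among those far towards that corner.

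Against baseline, 2 of 3 golgins, 2 of 7 COPI subunits, 1 of 6 COPII genes, YIPF1 and TRAPPC3 fell under the positive gradient, and TMED1, STX4 and SEC14L1 rose. The limma test called 10 of the 64, 7 lower and 3 higher, where 7.77% and 6.08% of named genes were called lower and higher. That is 15.6%, near the 13.9% of named genes called (7.01% of all probe sets), so the number called does not set these genes apart. In direction, 48 of the 64 were lower (75%, against 52.9% of named genes), with a median of −0.19 against −0.041. The positive gradient arrays lay wholly below those of baseline for 26 genes (40.6%, against 26.5%) and wholly above for 11 (17.2%, against 23.8%). With the replicate block 16 were called, 12 lower and 4 higher (25%, against 34.3% of named genes, 18.2% lower and 16.1% higher). The calls were not robust to single arrays. Without positive gradient replicate 2 or 3, 0 genes were called (26 and 17 at an unadjusted p under 0.05), without positive gradient replicate 1 or baseline replicate 1 or 3, 1 gene, without baseline replicate 2, 4 genes, and without high WSS replicate 3, 16 genes (24.6% of named genes called).

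GOLGA5 (golgin-84), a membrane-anchored golgin that captures vesicles within the Golgi, fell the most. It had 7.69, 7.60 and 7.31 under the positive gradient, against 8.62, 8.55 and 8.55 at baseline (difference −1.04, SE 0.151, adjusted p = 0.0142), a 2.06-fold lower signal. Its arrays under the negative gradient (7.99, 7.92 and 8.12) and at high WSS (8.02, 8.24 and 7.70) also lay wholly below those of baseline. GOLGA5 was the only one of the 64 called by the F test for any difference among the 4 groups (adjusted p = 0.032), beside 4.17% of named genes and 1.59% of all probe sets. GOLGA2 had 8.23, 8.29 and 8.04 under the positive gradient and 8.69, 8.56 and 8.83 at baseline and also fell (difference −0.51, SE 0.139, adjusted p = 0.0471). The third golgin, GOLGA4 of the trans-Golgi, differed by −0.058 (SE 0.216), and its dimmer second probe set by −0.49 (SE 0.294, adjusted p = 0.296).

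Of the coat genes, COPA, the alpha subunit of COPI, fell, with 9.98, 10.06 and 9.91 under the positive gradient and 10.81, 10.66 and 10.80 at baseline (difference −0.78, SE 0.162, adjusted p = 0.0238). COPB2, the beta-prime subunit, fell too, with 10.72, 10.55 and 10.52 under the positive gradient and 11.31, 11.15 and 11.25 at baseline (difference −0.64, SE 0.129, adjusted p = 0.0214). Neither gene's arrays overlapped between these groups. In the COPII coat SEC13 fell, with 10.64, 10.52 and 10.19 under the positive gradient and 11.01, 11.06 and 10.96 at baseline (difference −0.56, SE 0.138, adjusted p = 0.0355). Its partner in the outer coat, SEC31A, did not pass with all arrays and no block (−0.50, adjusted p = 0.0744). SEC31A passed with the block (adjusted p = 0.0379) and, without the block, when high WSS replicate 3 was left out (adjusted p = 0.0403). The other called falls were those of YIPF1, a YIP family protein of the Golgi (6.43, 6.51 and 6.39 under the positive gradient, 6.96, 6.92 and 7.14 at baseline, difference −0.57, SE 0.155, adjusted p = 0.047), and of TRAPPC3, a core subunit of the TRAPP tether (9.34, 9.24 and 9.28 under the positive gradient, 9.64, 9.70 and 9.90 at baseline, difference −0.46, SE 0.12, adjusted p = 0.0414). Both were separated between the groups on all arrays.

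The 3 genes that rose were TMED1, a p24 family cargo receptor, STX4, a SNARE of the plasma membrane used in exocytosis, and SEC14L1. TMED1 had 8.995, 9.06 and 8.77 under the positive gradient and 8.08, 8.47 and 8.12 at baseline (difference 0.72, SE 0.177, adjusted p = 0.0348). STX4 had 7.83, 7.80 and 7.47 under the positive gradient and 6.98, 7.28 and 7.15 at baseline (difference 0.56, SE 0.148, adjusted p = 0.0419), and SEC14L1 had 9.42, 10.01 and 9.52 under the positive gradient and 8.99, 9.03 and 8.90 at baseline (difference 0.68, SE 0.169, adjusted p = 0.036). All 3 were higher on each positive gradient array than on any baseline array. High WSS replicate 3, which stands apart from its group, also exceeded every baseline array for TMED1 (8.89) and STX4 (7.63). So did high WSS replicate 2 for STX4 (7.32), and all 3 high WSS arrays for SEC14L1 (9.14, 9.44 and 9.36). The additional genes called with the block were PDIA5 (−0.56), SEC23IP, a partner of the COPII subunit SEC23 (−0.61), SEC31A, the TRAPP-related TRAPPC2L (−0.49) and PDIA3 (−0.43), all lower, and TRAPPC1 (0.40), higher, at adjusted p-values of 0.0182 to 0.0401.

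**Figure D4:**
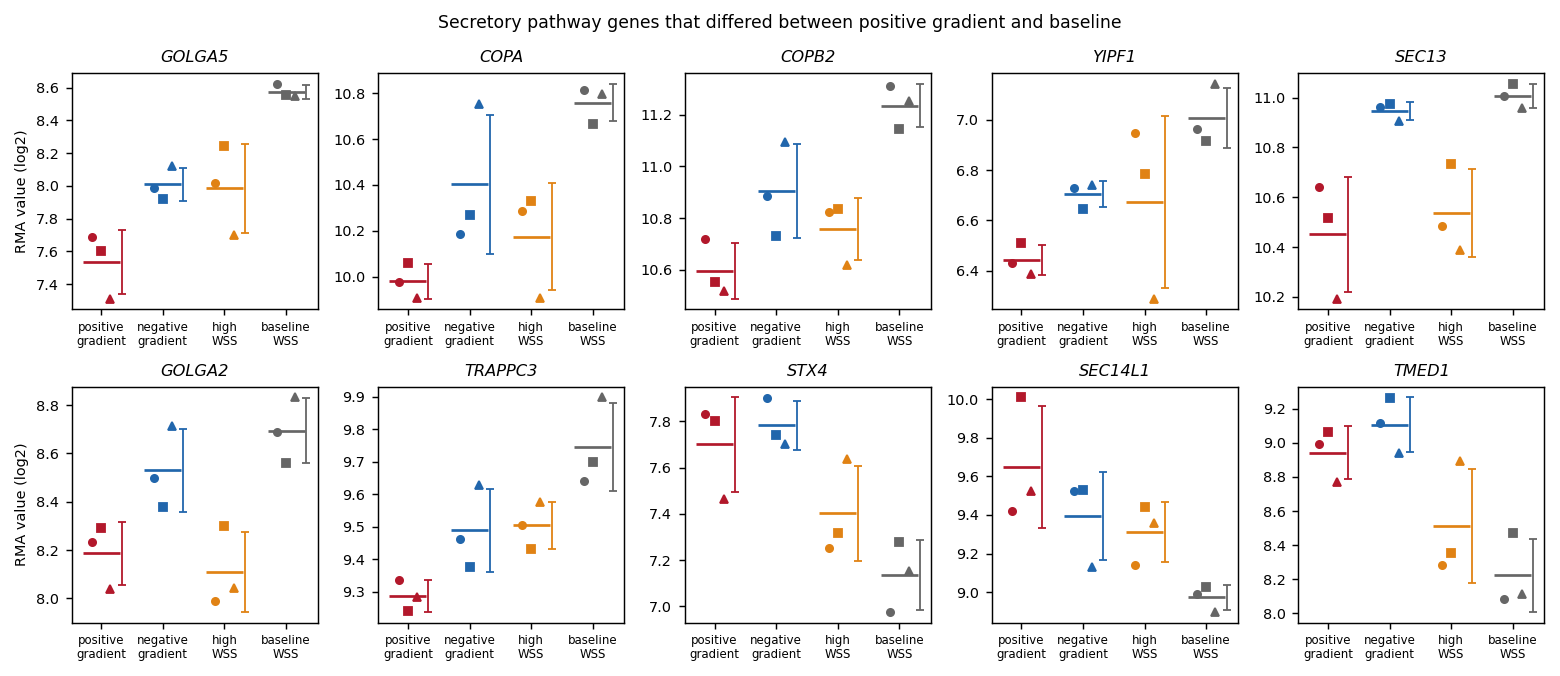
RMA signal (log2) of the 10 genes called between the positive gradient and baseline, on each array of the 4 groups; point shapes are replicate numbers, horizontal lines are means and bars are 1 SD (n = 3). The first 7 genes lie lower and STX4, SEC14L1 and TMED1 lie higher under the positive gradient than at baseline on all arrays, and high WSS replicate 3 (triangle) often lies nearest to the positive gradient.

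Under the negative gradient, TMED1 and STX4 rose against baseline, and the 64 genes as a group did not lie to one side. TMED1 had 9.12, 9.26 and 8.94 under the negative gradient, against 8.08, 8.47 and 8.12 at baseline (difference 0.88, SE 0.177, adjusted p = 0.0388), and STX4 had 7.90, 7.74 and 7.70 under the negative gradient, against 6.98, 7.28 and 7.15 at baseline (difference 0.65, SE 0.148, adjusted p = 0.0487). The call of STX4 was lost when arrays were centred on their medians. Those 2 of 64 are 3.12%, beside 3.65% of named genes (3.14% higher, 0.503% lower) and 1.67% of all probe sets. Of the 64, 35 were lower and 29 higher, with a median of −0.022 (named genes −0.069), and the arrays lay wholly above baseline for 15 genes (23.4%, against 16.6%) and wholly below for 10 (15.6%, against 17.8%). With the block 7 were called (10.9%, against 11.9% of named genes), 6 higher and 1 lower (8.32% and 3.55% of named genes). The added genes were YIPF3 (1.00), SEC61A2, a form of the pore subunit of the translocon (0.72), the COPI subunits COPZ1 (0.61) and COPZ2 (0.58), and GOLGA5 (−0.56), at adjusted p-values of 0.0375 to 0.0469. Without the block, leaving out 1 array gave 0 calls for 7 arrays (positive gradient replicates 1 and 2, all 3 of the negative gradient, and baseline replicates 1 and 3), 1 call for positive gradient replicate 3 and for baseline replicate 2, and 9 calls for high WSS replicate 3 (14.6% of named genes called). The positive and negative gradients were set against the same baseline arrays, so these lists of calls are not independent.

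The subunits of the COPI coat, which assemble as a single complex, did not share a direction against baseline. COPA, COPB1, the beta subunit, and COPB2 had lower means than baseline in each of the other groups: for COPB1 10.77 ± 0.09 under the positive gradient, 10.91 ± 0.06 under the negative gradient and 10.81 ± 0.27 at high WSS, against 11.15 ± 0.05 at baseline (mean ± SD, n = 3). COPE, the epsilon subunit, and COPG1, a gamma subunit, had their highest values under the negative gradient. COPE had 9.94, 9.80 and 9.68 under the positive gradient, 10.23, 10.15 and 10.20 on the negative gradient arrays, 9.60, 9.59 and 9.96 at high WSS and 10.004, 9.91 and 9.93 at baseline. Its negative gradient arrays lay above all 9 others. COPG1 had 10.03, 10.18 and 10.01 under the positive gradient, 10.29, 10.36 and 10.38 on the negative gradient arrays, 9.74, 9.89 and 10.03 at high WSS and 10.10, 10.16 and 10.02 at baseline, with the same separation. COPZ1 and COPZ2, alternative zeta subunits, were higher on the negative gradient arrays than on any baseline array. COPZ2 had 7.08, 6.76 and 6.65 under the positive gradient, 7.59, 7.14 and 7.17 on the negative gradient arrays, 6.23, 6.43 and 6.59 at high WSS and 6.78, 6.65 and 6.72 at baseline. Common to all 7 subunits was a lower mean under the positive than under the negative gradient. With all arrays, all 7 also had a lower mean at high WSS than under the negative gradient. For COPB1 this rested on high WSS replicate 3 (10.50). High WSS replicates 1 and 2 of COPB1 (10.94 and 10.99) lay above its negative gradient mean of 10.91.

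**Figure D5:**
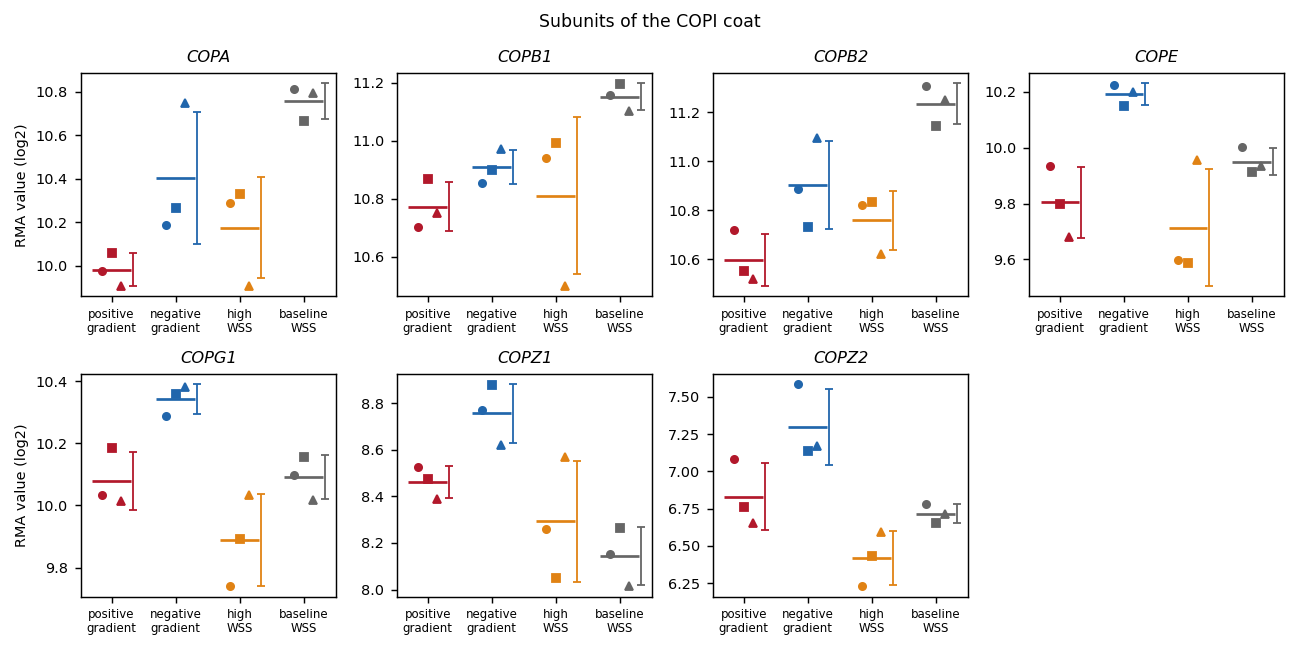
RMA signal (log2) of the 7 measured COPI subunits on each array of the 4 groups; point shapes are replicate numbers, horizontal lines are means and bars are 1 SD (n = 3). COPA, COPB1 and COPB2 are highest at baseline, and COPE, COPG1, COPZ1 and COPZ2 are highest under the negative gradient.

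At the entry to the ER the differences were smaller. Apart from SEC61A2, the translocon genes differed by −0.19 (SSR1) to 0.17 (SEC63) between the gradients, and by −0.25 (TRAM1) to 0.034 (SSR4) between the positive gradient and baseline. SEC61A2 had 6.12, 6.24 and 5.84 under the positive gradient, 6.21, 6.20 and 6.29 on the negative gradient arrays, 5.75, 5.53 and 6.18 at high WSS and 5.67, 5.70 and 5.19 at baseline. All gradient arrays of this gene lay above the baseline arrays. SSR4, a subunit of the translocon-associated complex, differed most between the negative gradient and high WSS (0.41, SE 0.12, adjusted p = 0.14). SRP9, which forms the part of the signal recognition particle that pauses translation, had 10.23 ± 0.11 under the positive gradient, 10.16 ± 0.13 under the negative gradient, 10.21 ± 0.20 at high WSS and 9.89 ± 0.12 at baseline (mean ± SD, n = 3). SRP9 was among the 11 genes with their lowest mean at baseline, and it did not pass in any comparison. RPN2, a subunit of the oligosaccharyltransferase that adds sugar chains to new proteins, differed by −0.12 (SE 0.106) between the gradients and by −0.21 (SE 0.106) between the positive gradient and baseline.

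HSPA5, which encodes BiP, the main chaperone of the ER and a target of the unfolded protein response, did not pass in any comparison. It had 12.18, 12.41 and 12.22 under the positive gradient, 12.10, 12.58 and 12.37 on the negative gradient arrays, 12.25, 12.47 and 12.16 at high WSS and 12.24, 12.71 and 12.37 at baseline. The groups overlapped, and the difference was −0.086 (SE 0.162) between the gradients and −0.14 (SE 0.162) between the uniform flows. The disulfide isomerases had lower means under the positive gradient and at high WSS than in the other groups. PDIA3 (ERp57), which acts on glycoproteins with the calnexin cycle, had 12.08, 12.21 and 11.95 under the positive gradient, 12.25, 12.49 and 12.47 on the negative gradient arrays, 12.23, 12.42 and 11.91 at high WSS and 12.36, 12.72 and 12.45 at baseline. Its positive gradient and baseline arrays did not overlap. PDIA5 had 7.48, 7.13 and 6.78 under the positive gradient, 7.90, 7.87 and 7.54 on the negative gradient arrays, 7.22, 7.23 and 6.83 at high WSS and 7.62, 7.91 and 7.52 at baseline, and all arrays of the positive gradient and of high WSS lay below all others.

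In the COPII coat, SEC23A, the subunit that switches off the GTPase of the coat, had group means of 7.84 ± 0.39 under the positive gradient, 8.30 ± 0.16 under the negative gradient, 7.76 ± 0.09 at high WSS and 8.03 ± 0.14 at baseline (SD, n = 3). SEC24B went the other way, with 7.15 ± 0.26 under the positive gradient, 6.94 ± 0.36 under the negative gradient, 7.41 ± 0.06 at high WSS and 7.42 ± 0.04 at baseline, its lowest mean under the negative gradient. Neither passed the test in any comparison. TMED10, a p24 receptor, differed little between any groups, from −0.094 (SE 0.134) between the gradients to 0.12 (SE 0.134) between the negative gradient and high WSS.

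TRAPPC1, a small TRAPP subunit, split the arrays by gradient or uniform flow and not by gradient direction. It had 9.10, 8.94 and 9.09 under the positive gradient, 9.26, 8.96 and 8.98 on the negative gradient arrays, 8.42, 8.49 and 8.67 at high WSS and 8.69, 8.55 and 8.67 at baseline. All 6 gradient arrays lay above all 6 uniform-flow arrays, and the set of records cannot be told apart from the flow here. The SNAREs showed no shared direction against baseline: 4 of 11 had a higher mean under the positive gradient than at baseline, 6 of 11 under the negative gradient and 5 of 11 at high WSS. VAMP3, a SNARE of recycling endosomes, differed by −0.058 (SE 0.134) between the gradients. STX10, a SNARE of the trans-Golgi, had 6.75, 6.37 and 6.47 under the positive gradient, 7.17, 6.54 and 6.63 on the negative gradient arrays, 6.07, 5.89 and 6.53 at high WSS and 6.09, 6.17 and 6.18 at baseline. Its negative gradient values lay above those of baseline on all arrays, but the difference did not pass (0.63, adjusted p = 0.0902).

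Set against high WSS, cells under the positive gradient had the 64 genes on both sides and cells under the negative gradient had most of them higher. Between the positive gradient and high WSS 38 were higher and 26 lower, with a median of 0.024, and the limma test called 0 of the 64 (0% of named genes and of all probe sets), with a smallest adjusted p of 0.79 and 5 genes at an unadjusted p under 0.05. The arrays lay wholly below high WSS for 5 genes (7.81%, against 2.62% of named genes) and wholly above for 2 (3.12%, against 3.75%). Without high WSS replicate 3 the balance turned, with 37 lower and a median of −0.031, and again 0 were called (17 at an unadjusted p under 0.05, 2.49% of named genes called). The positive gradient arrays then lay wholly below the 2 remaining high WSS arrays for 19 genes (29.7%, against 25.7%) and wholly above for 13 (20.3%, against 18.5%). Between the negative gradient and high WSS 49 were higher (76.6%, against 49% of named genes), with a median of 0.19 against −0.010. The negative gradient arrays lay wholly above those of high WSS for 24 genes (37.5%, against 12.5%) and wholly below for 1 (1.56%, against 7.09%). The limma test called 0 of the 64 in this comparison (0.302% of named genes, 0.0958% of all probe sets), with a smallest adjusted p of 0.064 and 23 genes at an unadjusted p under 0.05.

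Without high WSS replicate 3, 43 of the 64 were higher under the negative gradient than at high WSS, with a median of 0.13. The negative gradient arrays then lay wholly above the 2 remaining high WSS arrays for 26 genes (40.6%, against 21.8% of named genes) and wholly below for 7 (10.9%, against 23.9%). In this setting 9 genes were called between the negative gradient and high WSS, all higher (14.1%, beside 8% of named genes called higher and 12.6% called in either direction). YIPF3 differed most. With all arrays it had 9.31, 9.19 and 9.04 under the negative gradient and 7.48, 7.73 and 8.53 at high WSS, so the third high WSS array stood well above the first and second (difference 1.26, SE 0.238, adjusted p = 0.064 with it, 1.57, adjusted p = 0.00248 without it). COPZ2 gave 0.88 with that array (adjusted p = 0.064) and 0.97, adjusted p = 0.0109 without it. The others were the COPI subunits COPE, COPG1 and COPZ1, the translocon subunit SSR4, TMED1, TRAPPC1 and STX10, with differences of 0.51 to 0.80 without it. Thus 4 of the 9 were COPI subunits, out of 7 measured.

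For 11 of the 64 genes a second, dimmer probe set was measured, and some of these disagreed with the one used. The second probe set of HSPA5 gave −0.68 (SE 0.278, adjusted p = 0.924) between the gradients, against −0.086 for the brighter one. For PDIA4, an ER disulfide isomerase, the second probe set differed by 1.43 between the negative gradient and baseline (adjusted p = 0.0401), against −0.10 for the one used, and the 2 probe sets correlated with r = 0.078 over the 12 arrays. For STX6, a SNARE of the trans-Golgi and endosomes, the second gave −1.02 between the positive gradient and baseline (adjusted p = 0.037), against −0.20 (r = 0.019). For GOLGA4 the second gave 0.40 (SE 0.294) between the gradients, against −0.038 (r = −0.48). For SEC23IP it gave −0.19 (adjusted p = 0.459 without the block) between the positive gradient and baseline, against −0.61 (r = 0.62). With all probe sets of a gene averaged, 55 of the 64 genes were lower under the positive than under the negative gradient and 9 higher. For COPZ1 both probe sets went the same way (r = 0.92), and the second one passed for the positive gradient (1.20, adjusted p = 0.0475) and for the negative gradient (1.66, adjusted p = 0.0388) against baseline.

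Neighbouring gene lists, chosen with earlier results of these data known and without the 64 genes, were counted by the same test. The shares of named genes called are those given above, 7.77% lower and 6.08% higher for the positive gradient against baseline, 0.503% lower and 3.14% higher for the negative gradient against baseline, and 1.18% in either direction for high WSS against baseline. In the list for the unfolded protein response and ER-associated degradation (24 of 44 measured), 1 gene rose and 2 fell under the positive gradient against baseline. CALR, the ER chaperone calreticulin, rose (1.36, adjusted p = 0.0496), and BET1L, a Golgi SNARE, and CREB3L2, a transcription factor of ER stress, fell (−0.89, adjusted p = 0.0251, and −0.63, adjusted p = 0.0283). Under the negative gradient CALR (1.98, adjusted p = 0.0345) and CRELD1, an ER protein (0.86, adjusted p = 0.0477), rose. In N-glycosylation (19 of 41), 2 fell under the positive gradient, STT3B, a catalytic subunit of the oligosaccharyltransferase (−0.62, adjusted p = 0.0488), and MOGS, the first glucosidase of glycan trimming (−0.47, adjusted p = 0.0459). Under the negative gradient 2 rose, DDOST, another subunit of that transferase (0.94, adjusted p = 0.036), and GMPPA (0.90, adjusted p = 0.0493). Between the gradients 0 of either list were called, and 17 of 24 and 12 of 19 were lower under the positive gradient, where 52% of named genes were lower. The medians of the 2 lists were −0.17 and −0.15, against −0.011 over named genes.

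Of the vesicle GTPases and their regulators (17 of 32 measured), RAB3D, a GTPase of regulated secretion, fell under the positive gradient (−0.76, adjusted p = 0.0177) and at high WSS (−0.71, adjusted p = 0.0466) against baseline. Under the negative gradient ARFGAP1 (1.03, adjusted p = 0.0477) and ARF1 (0.70, adjusted p = 0.0477), which switch the COPI coat off and on, rose. Of the other tethers and fusion factors (20 of 45), 6 fell under the positive gradient against baseline, and 17 of 20 had a lower mean (median −0.43). Those 6 are 30% of the measured genes of a list chosen with results known, against 7.77% of named genes called lower. The largest falls were those of NAPB, a SNARE disassembly factor (−1.01, adjusted p = 0.0211), of BET1L, which both lists hold, and of RINT1, a tether subunit (−0.76, adjusted p = 0.0323). Of the endothelial secretory cargo genes (22 of 27), TIMP1, a protease inhibitor (1.25, adjusted p = 0.0214), and SPARC, a matrix protein (0.67, adjusted p = 0.045), rose under the positive gradient, while the basement membrane genes LAMA4 (−0.71, adjusted p = 0.0249) and COL4A1 (−0.69, adjusted p = 0.0447) fell. Dimmer second probe sets of LAMA4, COL4A1 and STT3B did not repeat these falls, at 0.36 (SE 0.221), 0.20 (SE 0.19) and 0.21 (SE 0.181). SPARC also rose under the negative gradient (0.83, adjusted p = 0.0415). Without the block, 0 genes of these lists were called between the gradients or between either gradient and high WSS.

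With the replicate block the lists gave other counts. For the positive gradient against baseline, 2 genes of the unfolded protein response list rose and 4 fell, 2 of N-glycosylation rose and 3 fell, 1 of the GTPases rose and 3 fell, 2 of the tethers rose and 8 fell, and 4 of the cargo genes rose and 7 fell, where 16.1% of named genes were called higher and 18.2% lower. For the negative gradient against baseline, 2 genes of the unfolded protein response list, 5 of N-glycosylation, 3 of the GTPases and 4 of the cargo genes rose, and 2 of the tethers fell (8.32% of named genes higher, 3.55% lower). For high WSS against baseline, 1 gene of the unfolded protein response list and 2 of the GTPases fell, 1 of the tethers rose, 3 of the cargo genes rose and 3 fell, and 0 of N-glycosylation were called (14.6% of named genes in either direction). In the negative gradient against high WSS, the replicate numbers were not taken to pair samples. There 2 genes of the unfolded protein response list, 1 of N-glycosylation, 1 of the tethers and 4 of the cargo genes were higher (5.78% of named genes). No gene of these lists was lower there (5% of named genes). Between the gradients 1 gene of these lists was called, CCL2, a secreted chemokine, lower under the positive gradient (difference −1.50, adjusted p = 0.0361 with the block and 0.9997 without it), beside 0.0754% of named genes.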

How the data were processed

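The deposited matrix holds log2 values per probe set that the authors made with RMA, per the submitters' processing notes, which name limma as well. Versions and settings: not given in the sources used here. All 24128 probe sets were read and no further scaling was applied. The 112 control probe sets were left out, so 24016 were tested. A second deposited table repeats 7194 probe sets, also as log2 values. Symbols came from the array annotation supplied with the series (4770 probe sets, 27 of them with several symbols and left unnamed), and all 64 members kept their symbol in RefSeq (ARS-UCD2.0). Columns of no sample numbered 0. Array medians were 5.65 to 5.72, and precision is limited by 3 arrays per group.

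All 12 arrays entered 1 linear model with a mean per group (R 4.3.3, limma 3.58.1, eBayes, with 8 residual degrees of freedom and 4.95 from the prior). The 6 comparisons and an F test over the groups were two-sided, with Benjamini-Hochberg adjustment over all tested probe sets and a threshold of 0.05. The fit was tested on simulated data. Named genes were, per comparison, called members separated on all arrays (up to 8 in each direction) or, where none was called, the 5 with the smallest p; per role, the members with the highest mean, the lowest mean and the smallest F test p; and a few fixed ones. Any other named member (such as SSR1, SSR2, COPB1, COPE or TRAM1) was chosen after its values were seen, to complete a complex or a range. The members and lists were chosen with earlier results of these data known.

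The titles number the replicates 1 to 3 in each group. Deviations from the group means correlated above 0.1 in 17 of 18 same-numbered pairs (range −0.079 to 0.62) and in 1 of 36 other pairs. The exception was replicate 3 of the negative gradient and high WSS, so the numbers were taken to pair samples in the other 5 comparisons. Alternatives were the replicate block, only probe sets brighter than the median, arrays centred on their medians, eBayes with trend and robust, the mean of all probe sets of a gene, array weights, only the 2 groups compared, and leaving out each array. Leaving out each array with the block kept was added after seeing the data.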

Additional observations from a re-analysis of the deposited data

How the results depend on the processing

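The count of called genes among the 64 differed between the settings of the fit. The block, the trend and robust settings and the filter on bright probe sets leave differences of group means unchanged, so direction could not move in them. With the replicate block the count was 16 for the positive gradient against baseline, 7 for the negative gradient against baseline and 5 for high WSS against baseline, as given above. The block moved the call of no gene named above in the comparison between the gradients. For the negative gradient against high WSS, deviations of the pairs numbered 1 and 2 correlated (r = 0.33 and 0.41) and those of pair 3 did not (r = −0.079). There the count with the block was 7 (10.8% of named genes called), and for the F test it was 14 (27.8%). With array weights the counts were 16 for the positive gradient against baseline, 6 for the negative gradient against baseline, 9 for the negative gradient against high WSS and 19 for the F test. With trend and robust settings they were 4, 2 and 9 for the last 3 of these. With only bright probe sets they were 2 for the negative gradient against high WSS and 7 for the F test, and with centred arrays 1 for the negative gradient against baseline. Leaving out 1 array gave 0 to 16 for the positive gradient against baseline, 0 to 9 for the negative gradient against baseline, 0 to 9 for the negative gradient against high WSS, 0 to 14 for the F test, and 0 to 0 in the other 3 comparisons. With the block kept these ranges were 3 to 26, 0 to 12, 0 to 15 and 3 to 27, and 0 to 0 between the gradients, 0 to 6 for high WSS against baseline and 0 to 4 for the positive gradient against high WSS. The cause of these changes in count was not tested. The 12 calls printed above each kept their direction under every alternative run, and STX4 under the negative gradient against baseline no longer passed with centred arrays or with all probe sets of a gene averaged. Leaving out 1 array in turn, 66 of these results passed the threshold and 78 did not. Between the gradients 49 to 56 of the 64 genes were lower when 1 array was left out, and 53 with centred arrays. Array signals give no count depth, and the number of arrays and their spread limit what could be called. Without high WSS replicate 3, 9 and not 0 of the 64 were called for the negative gradient against high WSS.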
